A study of Mus musculus with 8 samples.

Results

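The 10 transcription factor genes that mark the primitive streak and the mesoderm that forms somites were followed in the RNA-seq libraries of this mouse series, out of 32567 genes in the table. They were chosen by name: T, Tbx6, Msgn1, Mesp1, Mesp2, Tcf15, Meox1, Meox2, Pax1 and Foxc2, and all 10 were found. The libraries came from mouse embryonic stem cells (ESC) and from cells obtained from them through embryoid bodies and retinoic acid (RA-DIFF), each in 2 genotypes, the wild-type parental cells and huntingtin-null cells with both Htt alleles inactivated (Hdhex4/5/ex4/5, here Htt-null). ESC had been kept without feeder cells for 4 passages before embryoid bodies were formed, and RA-DIFF cells were dissociated and plated shortly before collection. Each of the 4 conditions was 1 library of 1 line, so no difference below has a replicate check and no p-value is given. Intervals are 95% intervals of the counting error alone, and they do not cover the difference between cultures or lines. PCR copies were not removed by molecular identifiers, so even the counting error may be larger.

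In the embryo, epiblast cells pass through the primitive streak and leave it as mesoderm. T (brachyury) is switched on in the streak and later in the notochord, Msgn1 and Tbx6 act in the presomitic mesoderm that lies beside the midline, and Mesp1 and Mesp2 act in nascent mesoderm and at the border where the next somite forms. Tcf15, Meox1 and Meox2 act in the somites themselves, and Pax1 and Foxc2 in the sclerotome, the part of the somite that gives vertebrae and ribs. Tcf15 is also expressed in pluripotent cells. Retinoic acid treatment of embryoid bodies is used mainly to obtain neural cells.

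The targeted gene was examined first. Htt had 163.6 CPM (counts scaled to the total counted reads of a library) in wild-type ESC and 114 in Htt-null ESC, a log2 ratio of -0.58. In RA-DIFF it had 74.3 CPM in the library labelled wild type and 96.3 in the library labelled Htt-null, a log2 ratio of 0.43, so Htt was higher where the label says it is inactivated. A table of expression levels published with the study also pairs the RA-DIFF genotypes with these libraries the other way round. The RA-DIFF libraries are therefore called by their labels throughout, and the members' ratios that rest on those labels are also given with the labels exchanged. Reads outside the deleted exons still count for Htt, so its level is no direct readout of the allele.

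Total counts ranged from 63617410 to 110569127 per library, and 3 counts, the upper limit that a count of 0 allows, corresponded to between 0.0271 and 0.0472 CPM. The 10 genes of naive pluripotency examined summed to 5179 and 4697 CPM in wild-type and Htt-null ESC against 68.8 and 27.9 CPM in RA-DIFF labelled wild type and labelled Htt-null. The 12 neural genes summed to 90.5 and 148 CPM in ESC against 3495 and 2221 CPM in RA-DIFF in the same order. The nuclear ribosomal RNA entry Rn18s-rs5 took 0.0343% of the counts in RA-DIFF labelled Htt-null and between 0.295% and 0.526% in the other libraries.

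The 250 bases before the RefSeq start site were read for the 7 members with an entry in the promoter table (build GRCm38.p6). Shown are 4: T and Meox2, the members with the most reads in RA-DIFF labelled Htt-null, Tbx6, which moved the other way there, and Msgn1, which had almost no reads in any library. T lies at chr17:8434173-8434422 on the plus strand, Meox2 at chr12:37108290-37108539 on the plus strand, Tbx6 at chr7:126781233-126781482 on the plus strand and Msgn1 at chr12:11208949-11209198 on the minus strand. Capitals mark a TATA box (TATAAA or its reverse TTTATA) and a site for TCF/LEF factors, which act in the Wnt pathway (CTTTGAT or its reverse ATCAAAG). Each sequence runs 5′ to 3′ on the strand of its gene.
T: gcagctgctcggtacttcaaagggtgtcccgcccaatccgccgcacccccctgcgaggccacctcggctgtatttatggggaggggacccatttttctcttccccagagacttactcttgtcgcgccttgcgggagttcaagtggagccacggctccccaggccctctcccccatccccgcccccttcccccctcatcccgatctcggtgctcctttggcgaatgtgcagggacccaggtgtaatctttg
Meox2: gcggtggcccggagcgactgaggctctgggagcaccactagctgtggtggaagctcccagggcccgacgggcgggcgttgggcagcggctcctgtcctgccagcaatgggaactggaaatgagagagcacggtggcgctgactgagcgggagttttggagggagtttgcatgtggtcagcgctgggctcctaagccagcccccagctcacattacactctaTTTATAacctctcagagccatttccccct
Tbx6: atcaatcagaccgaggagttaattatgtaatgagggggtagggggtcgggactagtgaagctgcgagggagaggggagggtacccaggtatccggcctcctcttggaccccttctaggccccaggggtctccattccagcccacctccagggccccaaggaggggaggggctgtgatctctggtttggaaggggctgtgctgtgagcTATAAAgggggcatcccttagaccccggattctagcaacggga
Msgn1: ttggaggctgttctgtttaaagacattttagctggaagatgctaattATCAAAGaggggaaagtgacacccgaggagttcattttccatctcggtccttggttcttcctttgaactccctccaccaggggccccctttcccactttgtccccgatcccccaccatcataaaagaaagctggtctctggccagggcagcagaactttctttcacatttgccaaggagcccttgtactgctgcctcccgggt

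The TATA box stood 29 bases before the start of Meox2 and 43 bases before that of Tbx6, and 12.4% of 32851 RefSeq promoters of this length hold these letters on either strand. The TCF/LEF letters stood 203 bases before the start of Msgn1 and 31 bases before that of Mesp1, against 3.21% of all promoters. The Mesp1 window reaches into the gene as the count table places it, so it is not shown, and the Pax1 window lies wholly inside Pax1 as placed there. The T-box site (GGTGTGA, 3.33% of all promoters) and the retinoic acid receptor site (AGGTCA, 14.02%), each searched on both strands, were in none of the 7 windows. E-boxes (CANNTG, the same on both strands, 66.2% of all promoters) were counted 3 times before T, 2 times before Mesp1 and 1 time each before Msgn1, Mesp2 and Meox2. The E-box CATATG, a subset of the former, was in none of the 7 windows (3.46% of all promoters). A match of letters is a description of the sequence and was not tied to binding.

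The members differed in where their reads lay. Tcf15 led in ESC, where it held 90.8% of the reads of all 10 genes in wild type and 85.2% in Htt-null. T, Meox2, Meox1 and Foxc2 together led in RA-DIFF labelled Htt-null, with 39.2%, 34.0%, 10.7% and 9.32% of those reads. In RA-DIFF labelled wild type Meox2 alone held 50.8% and T 6.54%. The 10 genes summed to 41.7 CPM in wild-type ESC, 36.9 in Htt-null ESC, 9.40 in RA-DIFF labelled wild type and 29.7 in RA-DIFF labelled Htt-null.

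**Figure D1:**
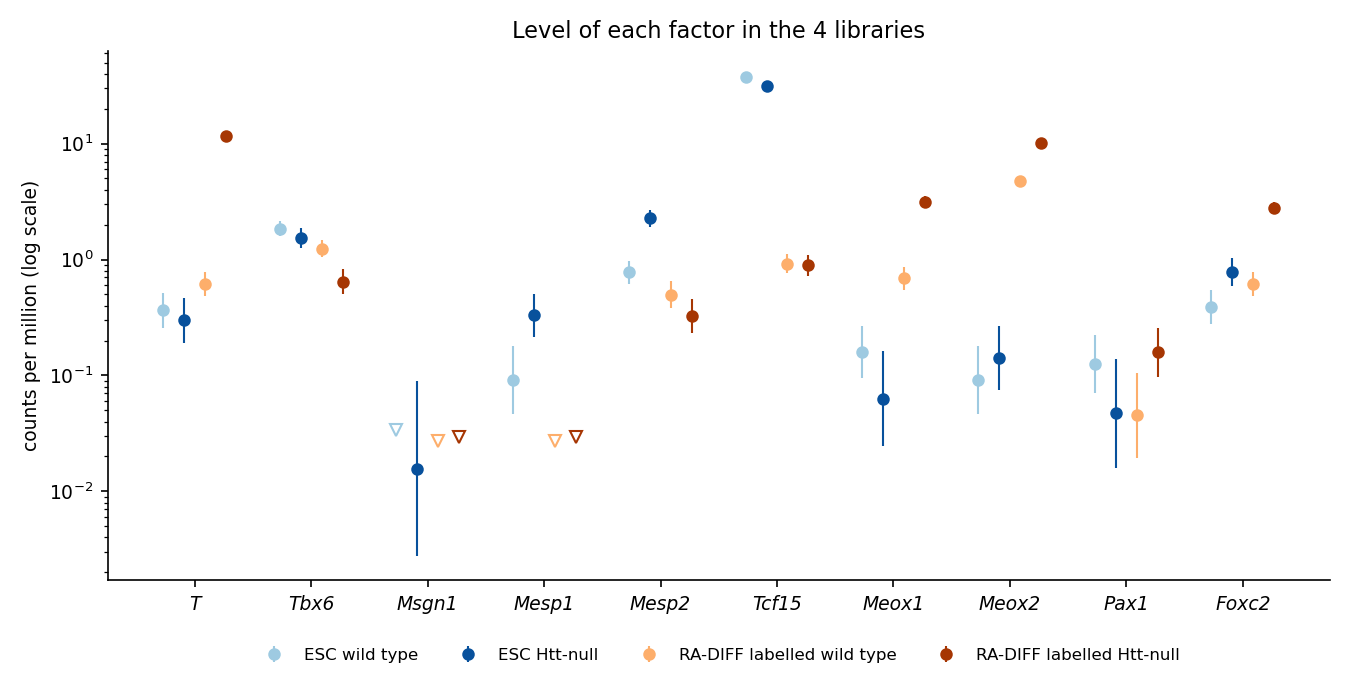
CPM (log axis) of the 10 factors in the 4 libraries, with the 95% Wilson interval of the counting error as bars and open triangles at 3 counts where a gene had 0 counts. T, Meox1, Meox2 and Foxc2 are highest in RA-DIFF labelled Htt-null, Tcf15 is highest in ESC, and Msgn1 has 1 count in 1 library.

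Per kilobase of exon (RPKM, using GENCODE vM21 exon lengths), Tcf15 stood first in both ESC libraries, at 38.7 in wild type and 32.1 in Htt-null. In wild-type ESC it was followed by Tbx6 at 1.02 and Mesp2 at 0.398, and each step in that order exceeded the counting intervals, whereas T at 0.157 and Foxc2 at 0.142 had overlapping intervals. In Htt-null ESC Mesp2 at 1.16 and Tbx6 at 0.845 RPKM had intervals that overlapped. In RA-DIFF labelled wild type Meox2 was first at 2.02 RPKM, followed by Tcf15 at 0.941 and Tbx6 at 0.687, which overlapped each other. In RA-DIFF labelled Htt-null, T was first at 5.02 RPKM, above Meox2 at 4.28, Meox1 at 1.42 and Foxc2 at 1.01, while Foxc2 and Tcf15 at 0.910 overlapped.

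A difference was called where the log2 ratio of counts, scaled by the TMM method (factors that align libraries on the bulk of their genes), exceeded 0.75 in size in a gene whose average level over the 4 libraries was above 0 on the log2 CPM scale. Of the 10 members 6 passed that limit: T, Tbx6, Tcf15, Meox1, Meox2 and Foxc2. T, Meox1, Meox2 and Foxc2 passed through the libraries in which they were high, since the mean of their 4 log2 CPM values was -0.03, -1.21, -0.04 and -0.19. Their counts of calls are therefore not independent of their differences. The gene lists below were held to the same limit, so their counts of calls and medians carry the same dependence. Mesp2 missed the limit at -0.15, and Msgn1, Mesp1 and Pax1 lay between -5.33 and -3.08. In bulk RNA fewer cells of a type and less RNA per cell cannot be told apart.

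Differentiation was compared within each labelled genotype. Meox2 and Meox1 were higher in RA-DIFF than in ESC and Tcf15 was lower, whichever way the RA-DIFF libraries were assigned. The size of the T difference depended on that assignment. In cells labelled wild type, 60.2% of 15489 genes were called, 34.2% higher and 26.0% lower, and of the 6 members that passed 2 were called higher and 1 lower. In cells labelled Htt-null, 59.2% of 15488 genes were called, 34.6% higher and 24.6% lower, and of the 6 members that passed 4 were called higher and 2 lower. The comparisons of differentiation use the same 4 libraries as those of genotype.

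T (chr17:8434423-8442496, plus strand) had 32 counts in wild-type ESC, 19 in Htt-null ESC, 68 in RA-DIFF labelled wild type and 1172 in RA-DIFF labelled Htt-null. A single library thus stood far above the others. The log2 ratio of RA-DIFF over ESC was 0.72 (0.09 to 1.37) by the wild-type labels, just under the limit, and 5.35 (4.70 to 6.09) by the Htt-null labels. With the RA-DIFF labels exchanged the values were 5.01 and 1.06. With library sizes alone as the scale, 3 members instead of 2 were called higher in cells labelled wild type.

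Meox2 (chr12:37108540-37179534, plus strand), a homeobox gene of somites and limb muscle precursors, had 8, 9, 528 and 1019 counts in the same order. Both RA-DIFF libraries exceeded both ESC libraries. The log2 ratio of RA-DIFF over ESC was 5.67 (4.69 to 6.89) in cells labelled wild type and 6.23 (5.30 to 7.36) in cells labelled Htt-null. With the labels exchanged it was 6.81 and 5.09.

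Meox1 (chr11:101877510-101894374, minus strand), its relative in the homeobox family, had 14, 4, 76 and 319 counts. RA-DIFF was higher in both labelled genotypes, by a log2 ratio of 2.07 (1.24 to 3.01) and 5.72 (4.35 to 7.61), or 4.33 and 3.47 with the labels exchanged. Both the 5.72 and the 3.47 rest on 4 counts in Htt-null ESC. The antisense gene Gm11551 overlaps Meox1 but had 0 counts in 3 libraries and 4 in RA-DIFF labelled Htt-null.

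Tcf15 (chr2:152143561-152149097, plus strand), a bHLH factor, had 3332, 2002, 102 and 90 counts. Its level was lower in RA-DIFF, by a log2 ratio of -5.40 (-5.70 to -5.12) and -5.07 (-5.39 to -4.76), and hardly changed with the labels exchanged, at -5.39 and -5.08. Tcf15 thus followed the direction of the naive pluripotency genes and not that of Meox1 and Meox2. All 10 naive pluripotency genes were called lower in both labelled genotypes, beside 26.0% and 24.6% of all genes.

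Foxc2 (chr8:121116171-121118895, plus strand), a forkhead gene of somites and sclerotome, had 34, 50, 68 and 279 counts. The log2 ratio of RA-DIFF over ESC was 0.63 (0.02 to 1.27) in cells labelled wild type, which was not called, and 1.89 (1.45 to 2.35) in cells labelled Htt-null. Exchanging the labels gave 2.85 (2.34 to 3.41) and -0.34 (-0.89 to 0.22). The latter interval includes 0, so whether Foxc2 was higher in RA-DIFF of Htt-null cells depends on the labels.

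Tbx6 (chr7:126781483-126785560, plus strand) had 162, 97, 137 and 65 counts. Its ratio of RA-DIFF over ESC was -0.61 (-0.95 to -0.27) in cells labelled wild type, not called, and -1.17 (-1.65 to -0.70) in cells labelled Htt-null, called lower. The latter call was lost with an average log2 CPM limit of 1. It was also lost when edgeR's exact test with an assumed dispersion of 0.1 was required. With the labels exchanged the call moved to the wild type, at -1.50 against -0.28. Ppp4c, on the other strand 346 bases away, had between 8587 and 18803 counts, and Ypel3, on the same strand 968 bases away, had 2567, 1621, 2541 and 1516 counts. Whether reads running past the end of either reached Tbx6 was not tested.

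Mesp2 (chr7:79810727-79813431, plus strand) had 68, 144, 55 and 33 counts, and its log2 ratio of RA-DIFF over ESC was -0.68 (-1.22 to -0.14) and -2.72 (-3.31 to -2.17), or -1.23 and -2.17 with the labels exchanged. Mesp1 (chr7:79792241-79793788, minus strand) had 8 and 21 counts in ESC and 0 in both RA-DIFF libraries. Taking 0 as 3 counts per library and the ESC counts as they stand, it was at least 3.45-fold lower in cells labelled wild type and at least 10.6-fold lower in cells labelled Htt-null, log2 ratios of -1.78 and -3.40. The exact intervals, which also carry the counting error of the 8 and 21 counts, end nearer to 0, at -1.14 and -2.97. With the labels exchanged the floor gave -1.60 and -3.59. Pax1 (chr2:147361925-147393295, plus strand) had 11, 3, 5 and 16 counts and Msgn1 (chr12:11208382-11208948, minus strand) 0, 1, 0 and 0. The Pax1 ratio was -1.51 (-3.38 to 0.14) and 1.82 (0.02 to 4.24). With the labels exchanged it was 0.36 (-0.84 to 1.61) and -0.04 (-2.41 to 2.64), so both signs turned and no direction of differentiation can be given for Pax1.

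**Figure D2:**
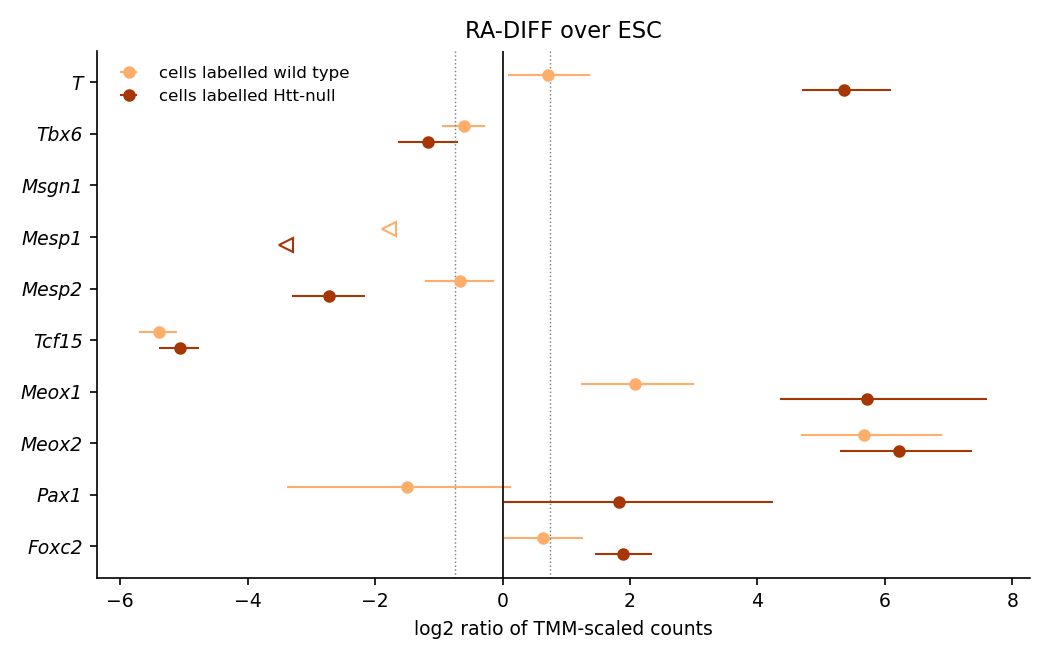
Log2 ratio of TMM-scaled counts, RA-DIFF over ESC, for each factor in cells labelled wild type and labelled Htt-null, with 95% intervals of the counting error and dotted lines at 0.75. Open triangles are bounds for Mesp1, which had 0 counts in RA-DIFF. Tcf15 lies near -5 in both, and T lies at 0.72 in one and at 5.35 in the other.

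Genotype was compared in ESC, where Htt was lower in the Htt-null cells. Of the 6 members that passed the limit, Foxc2 was called higher and Meox1 lower in Htt-null ESC, against a background of 8.75% of 15303 genes called, 5.20% higher and 3.55% lower. The Meox1 call rests on 4 against 14 counts, with a log2 ratio of -1.40 (-3.46 to 0.27), an interval that includes 0. Foxc2 stood at 0.97 (0.31 to 1.64), from 50 against 34 counts. Both calls were lost with an average log2 CPM limit of 1 or when edgeR's exact test with an assumed dispersion of 0.1 was also required, that of Foxc2 also with a fold limit of 1 and that of Meox1 also at a dispersion of 0.01. T at -0.34 (-1.24 to 0.52), Tbx6 at -0.33 (-0.71 to 0.04) and Meox2 at 0.58 (-0.97 to 2.16) were not called, nor was Tcf15 at -0.32 (-0.40 to -0.24). Mesp2 and Mesp1, both under the expression limit, stood at 1.49 (1.07 to 1.93) and 1.80 (0.57 to 3.19), from 144 against 68 and 21 against 8 counts. These 2 genes lie near each other on chromosome 7. Of the fibroblast and mesenchyme genes, 8 of the 13 that passed and had enough ESC counts for a ratio were called lower in Htt-null ESC and none higher, with a median of -0.83 against -0.04 for all genes. Of the neural genes, 5 of the 10 with such a ratio were called higher and none lower, with a median of 0.55. The part of both lists in these differences was not tested.

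Genotype was compared in RA-DIFF by the labels. T, Meox1, Foxc2 and Meox2 were higher in RA-DIFF labelled Htt-null, Tbx6 was lower, and Tcf15 was at a like level. Thus, of the 6 members that passed the limit, 4 were called higher and 1 lower, against a background of 21.0% of 15444 genes called, 11.9% higher and 9.19% lower. The median over the 6 that passed was 1.68, against -0.01 for all genes, and T, Meox1, Meox2 and Foxc2 passed through their high libraries as stated above. With the labels exchanged, every one of these ratios keeps its size and takes the opposite sign.

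T was 19.6-fold higher in RA-DIFF labelled Htt-null, at 11.6 CPM (11.0 to 12.3) against 0.615 (0.485 to 0.780), a log2 ratio of 4.29 (3.94 to 4.67). Meox1 was 4.78-fold higher, at 3.16 against 0.687 CPM, a log2 ratio of 2.26 (1.89 to 2.64). Foxc2 was 4.67-fold higher, at 2.76 against 0.615 CPM, a log2 ratio of 2.22 (1.84 to 2.63). Meox2 differed least of these, 2.20-fold, at 10.1 against 4.78 CPM, with a log2 ratio of 1.13 (0.98 to 1.29). None of these intervals of counting error includes 0. With an average log2 CPM limit of 1, Meox1 and Foxc2 were no longer called. With the exact test at a dispersion of 0.1 also required, 3 of the 4 were called. When the mean of the 4 log2 CPM values had to exceed 0, a rule chosen after seeing the data, none of the 4 was called.

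Tbx6, the T-box gene of the presomitic mesoderm, moved opposite to T, at 0.644 against 1.24 CPM, a log2 ratio of -0.89 (-1.34 to -0.45). This call was lost with a fold limit of 1, with an average log2 CPM limit of 1 and when the exact test at a dispersion of 0.1 was also required. Tcf15 stood at 0.892 against 0.923 CPM, a log2 ratio of 0.01 (-0.42 to 0.43), so a difference of up to that size in either direction remains possible by counting. Mesp2 stood at -0.55 (-1.22 to 0.10) and Pax1 at 1.86 (0.35 to 3.67), the latter from 16 against 5 counts. Msgn1 and Mesp1 had 0 counts in both RA-DIFF libraries and give no ratio.

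**Figure D3:**
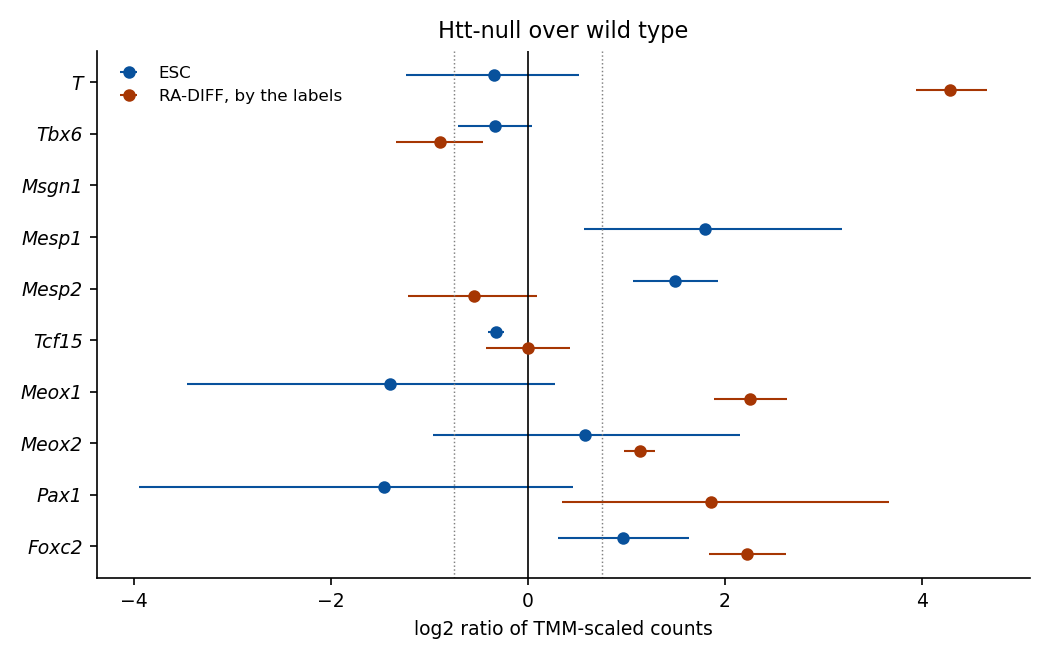
Log2 ratio of TMM-scaled counts, Htt-null over wild type, for each factor in ESC and, by the labels, in RA-DIFF, with 95% intervals of the counting error and dotted lines at 0.75. T is the farthest from 0 in RA-DIFF at 4.29, while in ESC its interval includes 0. Msgn1 has no point, and Mesp1 has none in RA-DIFF.

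Other genes of the streak were divided in RA-DIFF. Of 18 streak and tailbud genes 9 passed the limit, of which 2 were called higher and 6 lower in RA-DIFF labelled Htt-null. Over all genes 11.9% were called higher and 9.19% lower. The list's median was -1.16 against -0.01 for all genes. Foxa2, a forkhead gene of the anterior streak, midline and endoderm, was higher at 2.70, with 1208 against 211 counts. Wnt3, a Wnt ligand of the early streak also made in neural tissue, was lower at -2.02, with 2838 against 13120 counts. Fgf4, a growth factor of the streak and of pluripotent cells, was lower at -4.16, with 6 against 122 counts. Fgf8, under the limit, stood at 1.90, with 138 against 42 counts.

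Most presomitic mesoderm and segmentation clock genes that passed were not called. Of 18 genes 14 passed, 1 was called higher and 4 lower, beside 11.9% and 9.19% of all genes. The median was -0.30 against -0.01 for all genes. Lfng, a glycosyltransferase of the Notch pathway, stood at 0.99 and Fgf17 at 0.73, while Pcdh8, a protocadherin, stood at -2.12 and Rspo3, an enhancer of Wnt signalling, at -1.37.

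Somite, sclerotome and dermomyotome genes included members at both ends. Of 19 genes 13 passed, 7 were called higher and 4 lower, beside 11.9% and 9.19% of all genes. The median was 0.87 against -0.01 for all genes. Pax9, a sclerotome gene related to Pax1, stood at 2.90 with 871 against 133 counts, and Tbx18, a T-box gene of the anterior part of each somite, at 2.75 with 1273 against 215 counts. Uncx, a homeobox gene of the posterior part of each somite that neural cells also express, stood at -3.49 with 70 against 893 counts. Lbx1, a homeobox gene of migrating muscle precursors and of dorsal spinal cord, stood at -3.20 with 53 against 555 counts.

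Genes of other lineages also differed in RA-DIFF, to be read against the 11.9% of all genes called higher and the 9.19% called lower. List genes could also pass the limit through a library in which they were high. Osr1 passed with 391 counts in RA-DIFF labelled Htt-null, 57 in RA-DIFF labelled wild type, and 0 and 3 in ESC. Of 17 lateral plate, intermediate and cardiac mesoderm genes 10 passed, 8 were called higher and none lower, with a median of 1.05, from Osr1 at 2.96 and Bmp4 at 2.37 to Mef2c at 0.91 and Gata4 at -0.12. Of 16 fibroblast and mesenchyme genes 14 passed, 13 were called higher and none lower, with a median of 1.89. Their summed level was 3187 CPM in RA-DIFF labelled Htt-null, 911 in RA-DIFF labelled wild type, 1331 in wild-type ESC and 1245 in Htt-null ESC, and none of the 16 was at 0 in RA-DIFF. Fn1, fibronectin, made up 1272 and 1202 CPM of the ESC sums, and without it the list summed to 2824, 817, 59.1 and 43.1 CPM in the same order. Over ESC, 12 of the 14 that passed were called higher in RA-DIFF labelled wild type and 13 in RA-DIFF labelled Htt-null, and 1 lower in each, beside 34.2% and 34.6% of all genes called higher and 26.0% and 24.6% lower. Acta2 and Tagln, genes of the contractile cytoskeleton, stood at 3.95 and 3.71, Col5a2 at 1.24 and Pdgfrb at 0.57.

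Neural genes stood on the other side. All 12 passed, 1 was called higher and 8 lower in RA-DIFF labelled Htt-null, with a median of -1.16. Neurog2 and Neurog1, bHLH factors of neuronal commitment, stood at -3.67 and -2.44, Olig2 at 1.58 and Nes at 0.53. All 10 naive pluripotency genes passed, with 1 called higher and 8 lower and a median of -1.86, from Zfp42 at -3.58 and Pou5f1 at -3.24 to Klf4 at 0.33 and Tbx3 at 2.05. Of 8 endothelial genes 6 passed, 3 higher and 1 lower, with Emcn at 3.49, Kdr at 2.00, Flt1 at 0.57 and Pecam1 at -1.36. Of 10 endoderm genes 7 passed, 4 higher and none lower, with Foxa2 at 2.70, Foxa1 at 2.48, Cubn at 0.62 and Gata4 at -0.12. With the RA-DIFF labels exchanged, higher and lower trade places in every list. The part of these differences in those of T, Meox1, Meox2, Foxc2 and Tbx6 was not tested.

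**Figure D4:**
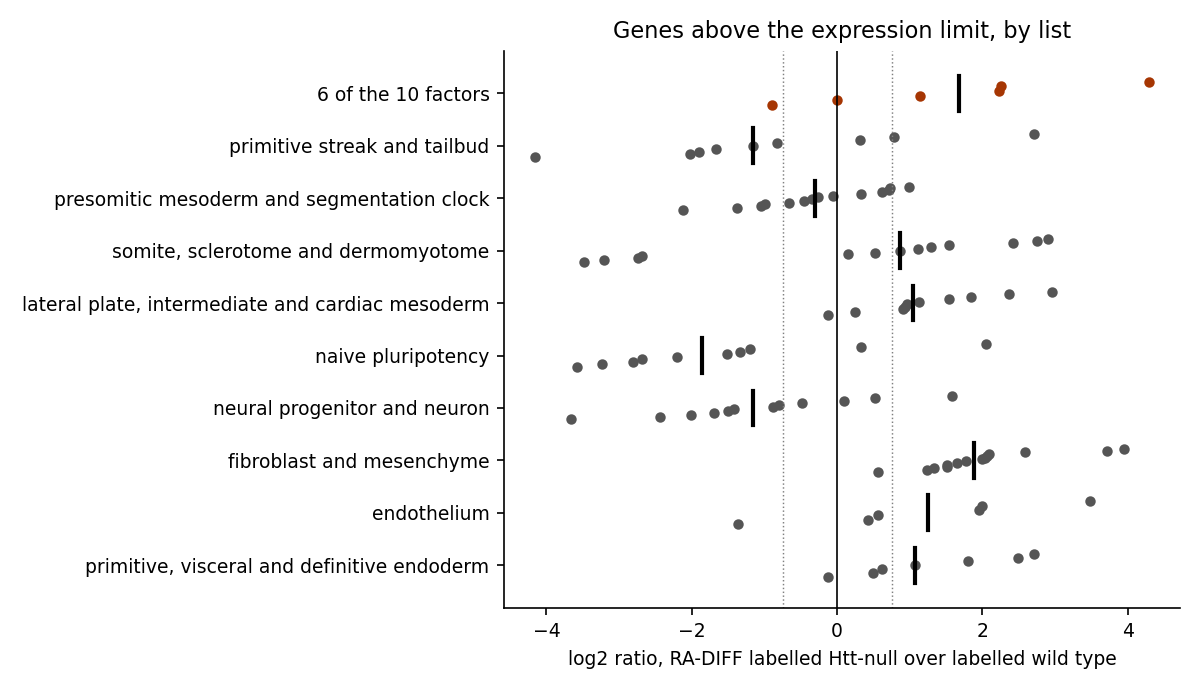
Log2 ratio of RA-DIFF labelled Htt-null over RA-DIFF labelled wild type for the genes above the expression limit in each list, 1 point per gene, with the list median as a black bar and dotted lines at 0.75. The members' median is 1.68, and the medians of the fibroblast and the neural list are 1.89 and -1.16. T, Meox1, Meox2 and Foxc2 passed the limit through the libraries in which they were high, as list genes could too. These medians are therefore not independent of the differences shown.

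The genes whose pattern over the 4 libraries was most like each member were named by the root mean square distance of centred log2 CPM, out of 16685 genes with enough reads. T was nearest to Casp12, a caspase, at 0.168 and Egfr, the EGF receptor, at 0.199. Casp12 had 4, 3, 9 and 191 counts and Egfr had 668, 367, 1435 and 16831 counts, in the order used above. Meox1 was nearest to Bmper, a secreted BMP regulator, at 0.134 and Col1a1, a type I collagen chain, at 0.140. Meox2 was nearest to Ntf3, a neurotrophin, at 0.0953 and Fam19a1 at 0.104. Foxc2 was nearest to Cdh26, a cadherin, at 0.0600 and Serpinf1, a secreted serpin, at 0.107.

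Tbx6 was nearest to Gm37249 at 0.0224 and Rsrp1 at 0.0374. Tcf15 was nearest to Pnma5 at 0.0454 and Gm17349 at 0.0516, and Mesp2 to Gm15280 at 0.0876 and Alox15, a lipoxygenase, at 0.108. Among the members themselves the closest pairs were Tbx6 with Mesp2 at 0.752 and T with Meox1 at 0.837, and the farthest was Tcf15 with Meox2 at 5.47. With 4 libraries such distances are a description only.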

How the data were processed

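RNA-seq gave 4 libraries, 1 per condition, grouped by the sample labels. The small RNA libraries were not used here. Per the labels and the study's methods, poly-A RNA was made into strand-specific dUTP libraries and read as 50 bp pairs. The authors aligned reads with TopHat2 2.0.14 to GRCm38.p4, counted them on GENCODE genes with HTSeq 0.6.1 in intersection-nonempty mode and deposited raw counts per gene. The study's methods name no strand option and otherwise leave programs at their defaults. The HTSeq default counts reads as stranded in the orientation opposite to that of dUTP libraries, so the methods alone leave the setting in doubt. A check added after seeing the data took 1651 pairs of a protein-coding gene and an antisense gene overlapping it. Each pair had at least 100 counts in all. The protein-coding gene had more counts in 1597, and a median of 0.564% of a pair's counts lay on the antisense gene. Reads of overlapping genes on opposite strands may still not be separated.

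From the deposited counts, TMM factors and average levels (assumed dispersion 0.01) were computed with edgeR 4.0.16 in R 4.3.3. Ratios used no prior count, and a count of 0 was taken as 3. Intervals were exact conditional binomial for ratios and Wilson for CPM (scipy 1.17.1), at 95% for counting error only. Total counts of 63617410 to 110569127 set the precision. The scripts were tested on simulated data. Members and gene lists were chosen with earlier results of these data known. Besides the members and Htt, the genes named were, per list, the 2 highest and 2 lowest RA-DIFF ratios among genes with at least 100 counts in the higher RA-DIFF library, the 2 nearest genes per member, and genes overlapping a member. Ppp4c and Ypel3, near neighbours of Tbx6, Rn18s-rs5, Fn1 and the axial genes of the closing section (Shh, Foxj1, Noto, Chrd, Nog, Krt8, Krt18 and Krt19) were named after their values were seen. Promoters came from RefSeq. Alternatives were other scalings (library size, DESeq2 1.42.0 size factors), expression and fold limits, a prior count of 2, edgeR's exact test with assumed dispersions of 0.01 and 0.1, and exchanged RA-DIFF labels.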

Additional observations from a re-analysis of the deposited data

How the results depend on the processing

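The members' ratios were unaffected in direction by another scaling (library size, DESeq2 size factors) or a prior count of 2 wherever they had been called, and none of these moved a count of members called by more than 1.5 times. Exchanging the RA-DIFF labels reversed the genotype ratios in RA-DIFF. They became -4.29 for T, 0.89 for Tbx6, -2.26 for Meox1, -1.13 for Meox2 and -2.22 for Foxc2. The ratio of RA-DIFF over ESC of Foxc2 in Htt-null cells became -0.34 (-0.89 to 0.22), an interval that includes 0. Exchanged labels gave 1 member higher and 4 lower for genotype in RA-DIFF, 4 higher and 2 lower for differentiation in wild type, and 1 lower in Htt-null.

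Without an expression limit, differentiation called 3 members lower in cells labelled wild type and 4 in cells labelled Htt-null, and genotype in ESC called 3 higher and 2 lower. Over all genes the counts higher and lower were then 9097 and 8302, 8486 and 8473 for differentiation in the 2 labelled genotypes, 3803 and 2401 for genotype in ESC, and 3895 and 4126 for genotype in RA-DIFF. A limit of 1 on the average log2 CPM left 1 member higher in differentiation of cells labelled wild type, 2 higher and 1 lower in those labelled Htt-null, 0 and 0 for genotype in ESC and 2 and 0 in RA-DIFF, with 516 genes higher in ESC. A fold limit of 1 left 0 members higher in ESC and 0 lower in RA-DIFF for genotype, with 468 genes higher and 301 lower in ESC and 942 lower in RA-DIFF. Requiring in addition edgeR's exact test with an assumed dispersion of 0.01 left 0 members lower in ESC. At 0.1 it left 1 member lower in differentiation of cells labelled Htt-null, 0 and 0 for genotype in ESC and 0 lower in RA-DIFF. Over all genes it left 2642 and 2435 lower in differentiation, with 153 (higher) and 99 (lower) by genotype in ESC, and 819 and 528 in RA-DIFF. Requiring the mean of the 4 log2 CPM values to exceed 0, chosen after seeing the data, kept only Tbx6 and Tcf15, so 0 members were called higher in any comparison and 0 lower in ESC. These stricter rules test fewer genes or add a condition.

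The lists were recounted only with library size alone and without an expression limit, not under the other alternatives. Library size alone gave 1 streak gene higher in RA-DIFF by genotype and 1 lateral plate gene lower in ESC. Without an expression limit more genes of each list count. Calls then rose over all genes as well, for genotype in ESC from 795 to 3803 higher and from 544 to 2401 lower. By differentiation in cells labelled wild type, the streak list then had 11 higher and 5 lower with a median of 1.69, the presomitic list a median of 1.34, the lateral plate list 8 higher and 5 lower with a median of 1.06, and the endoderm list 4 lower. In cells labelled Htt-null, the streak list had 7 lower with a median of 2.21, the somite list a median of 2.35, the lateral plate list 10 higher and 5 lower with a median of 1.11, and the endoderm list a median of 1.47. By genotype in ESC, the streak list had 5 higher with a median of -0.050, the presomitic list 2 higher and 2 lower, the somite list 6 higher with a median of 0.48, the lateral plate list 5 higher, the endothelial list 1 lower and the endoderm list 4 lower. By genotype in RA-DIFF, the streak list had 5 higher and 11 lower, the presomitic list 2 higher and the endoderm list 1 lower. No paired analysis was possible because each condition is 1 library. Depth limits Msgn1, Mesp1 and Pax1, which had at most 21 counts in any library.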

Other observations

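Genes of the embryonic axial midline, listed after the values of T had been seen, gave the following values in RA-DIFF labelled Htt-null against RA-DIFF labelled wild type. Shh, the signalling ligand of notochord and floor plate, had 9960 against 1326 counts, a log2 ratio of 3.10 (3.01 to 3.18), with 0 and 3 counts in wild-type and Htt-null ESC. Foxj1, a regulator of motile cilia, had 5834 against 1892 counts, a log2 ratio of 1.81 (1.74 to 1.89). Foxa2 stood at 2.70 (2.49 to 2.92). Noto, a homeobox gene of the notochord, had 3 against 0 counts, and 0 in both ESC libraries. The BMP antagonists Chrd and Nog stood at 0.20 (0.08 to 0.32) and -0.13 (-0.26 to 0.01), with 1211 against 1200 and 837 against 1040 counts. The keratins Krt8, Krt18 and Krt19 stood at 0.38, 0.82 and 0.77. With the RA-DIFF labels exchanged all these ratios take the opposite sign.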
